A study of Mus musculus with 32 samples.

Results

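Immediate early genes and the targets and subunits of NF-kappaB were followed in lungs and mammary tumors of mice with and without the chloride intracellular channel gene Clic4. The group held 45 genes of the 29511 in the count table, taken by symbol from a list. Of these, 42 passed the filter on low counts in lungs and 44 passed it in tumors. Egr3, Fosl1 and Tnf were not tested in lungs, where their counts per library ran from 0 to 15, from 0 to 11 and from 0 to 10, and Egr3 was not tested in tumors, with 2 to 12 counts.

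RNA from 32 snap-frozen tissues was sequenced, 20 lungs and 12 primary tumors. The hosts were virgin FVB/N females, 6 to 8 weeks old, either wildtype (WT) or constitutively deleted for Clic4 (KO), born to heterozygous parents. Lungs were taken at baseline (4 WT and 4 KO controls) or 14 days after 6DT1 cells were placed in the fourth mammary fat pad (6 WT and 6 KO), and tumors were taken at 14 days (6 from WT and 6 from KO hosts). 6DT1 is a mammary tumor line of the same strain that came from an MMTV-Myc mouse, and the tumor cells carried Clic4 in both hosts, so that only the host cells within a KO-host tumor lacked it. The labels do not tie samples to litters, and p-values measure the spread between these samples.

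Immediate early genes are switched on within minutes of a stimulus, without new protein being made, by factors already present in the cell. Their products, such as Fos, Jun, Egr1 and Nr4a1, are transcription factors, while others, such as Dusp1 and Zfp36, shut the signal down or destroy its messages. NF-kappaB is a set of dimers held in the cytoplasm by inhibitors until cytokines or microbial products release them. Among its targets are genes that restrain it (Nfkbia, Nfkbie and Tnfaip3) and its own precursor subunits (Nfkb1, Nfkb2). In lung and tumor tissue these genes respond to growth factors, cytokines and stress.

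Sequence upstream of the start site is shown for 3 of the genes named in the comparisons below (Nfkbie, Slc2a6 and Nfkb2), together with Fos as an immediate early gene and Nfkbia as the main inhibitor. Klf2 and Birc3, also named below, are not shown. The 250 bases before each annotated start came from RefSeq (GRCm38.p6), which matched 36 of the 45 members. No entry was found for Fosl1, Egr1, Egr3, Ier2, Klf10, Nfkb1, Relb, Trib1 and Cebpd. Sites farther upstream were not read for any member. Capitals mark matches to the NF-kappaB consensus on either strand. Nfkbie lies on chromosome 17, Nfkbia and Fos on chromosome 12 and Slc2a6 on chromosome 2, and none of these windows overlapped an exon of the annotation.
Nfkbie, chr17:45555450-45555699, plus strand: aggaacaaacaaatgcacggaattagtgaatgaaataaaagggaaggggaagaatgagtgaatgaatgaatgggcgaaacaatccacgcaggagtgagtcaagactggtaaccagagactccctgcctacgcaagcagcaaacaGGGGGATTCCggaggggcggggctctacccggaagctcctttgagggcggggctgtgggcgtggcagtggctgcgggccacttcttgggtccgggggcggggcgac
Nfkbia, chr12:55492648-55492897, minus strand: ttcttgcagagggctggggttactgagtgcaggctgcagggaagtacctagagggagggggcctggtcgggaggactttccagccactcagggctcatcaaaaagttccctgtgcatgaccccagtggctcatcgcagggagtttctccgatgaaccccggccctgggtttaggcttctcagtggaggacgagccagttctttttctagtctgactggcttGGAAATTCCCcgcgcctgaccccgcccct
Fos, chr12:85473640-85473889, plus strand: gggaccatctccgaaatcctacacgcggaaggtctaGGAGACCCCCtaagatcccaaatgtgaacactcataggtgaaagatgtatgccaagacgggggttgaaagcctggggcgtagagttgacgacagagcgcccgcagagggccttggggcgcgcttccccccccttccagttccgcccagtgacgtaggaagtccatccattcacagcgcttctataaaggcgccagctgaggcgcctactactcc
Slc2a6, chr2:27027999-27028248, minus strand: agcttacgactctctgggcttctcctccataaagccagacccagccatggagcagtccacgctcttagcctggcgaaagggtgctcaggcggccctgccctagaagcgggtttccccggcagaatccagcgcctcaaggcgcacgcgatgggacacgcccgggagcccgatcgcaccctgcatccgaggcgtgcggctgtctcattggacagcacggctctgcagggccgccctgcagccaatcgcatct

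For Nfkb2, whose window lies within an exon of a longer transcript, only a short site on chromosome 19 is shown.
Nfkb2, chr19:46304689-46304717, plus strand: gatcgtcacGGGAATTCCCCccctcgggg
The consensus was present upstream of 12 of the 36 matched members (33.3%) and of 8.23% of 27025 gene symbols. The members were Fos, Fosb, Fosl2, Egr2, Ier3, Nfkbia, Nfkbie, Nfkb2, Rel, Tnfaip3, Tnfaip2 and Maff. The AP-1 site TGANTCA was found upstream of Nfkbie, Nfkb2 and Tnfaip3 (8.33% of members and 7.82% of symbols), and the cyclic AMP response element TGACGTCA upstream of Dusp1, Btg2 and Maff (8.33% and 1.77%). A CArG box, the site of serum response factor, was found upstream of Egr2 and Zfp36 (5.56% and 1.62%). A match describes the letters in these windows and is not evidence of binding.

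Levels between genes were compared as FPKM, fragments scaled to gene length and library size, as deposited by the authors. In lungs the most abundant member was Dusp1, a phosphatase that inactivates MAP kinases, with a median of 310 FPKM over 20 lungs (79.6 to 436). Btg2, a growth-restraining factor, followed at 84.2 FPKM, Nfkbia at 80.5 FPKM and Klf6 at 74.7 FPKM, and the ranges of these last genes overlapped. Slc2a6, a glucose transporter family member of lysosomes, was at 2.85 FPKM in lungs. In tumors Nfkb1, which encodes the p105 precursor, was the most abundant member at 64.8 FPKM (59.0 to 86.7, n = 12). Tnfaip2 followed at 41.6 FPKM, Nfkbia at 37.4 FPKM and Junb at 35.7 FPKM, with overlapping ranges, while Dusp1 was at 24.9 FPKM and Slc2a6 at 14.7 FPKM.

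Before the comparisons, 1 property of the immediate early genes in these lungs needs to be stated. Within groups many of them varied far more than most genes, while Ier5 and Klf6 were nearer the middle (percentiles 54.0 and 64.0 of all genes). The median within-group SD of the 42 members was 0.408 on the log2 scale of CPM, the counts scaled to library size by the trimmed mean of M values, against 0.208 over all 16029 genes tested, and 15 members were among the most variable 5% of genes. Fos ranged from 13.3 to 235 CPM over the 20 lungs, a ratio of 17.7. Atf3, a stress-induced factor of the same family, ranged from 6.54 to 209 CPM. In contrast Nfkb1 stayed between 121 and 149 CPM with a within-group SD of 0.056.

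The variable genes moved together from lung to lung. After group means were removed, 19 of the other 41 members correlated with Fos at r above 0.7, as did 1.27% of all genes. For Nr4a1, an orphan nuclear receptor, Pearson's r was 0.98 and Spearman's rho 0.98 (n = 20, permutation p = 1e-05 for both, the smallest that 100000 permutations can give, adjusted p = 3.73e-05 and 4.56e-05 over 41 members). Without the 2 lungs farthest from the median of Fos, r was 0.98. The zinc finger factor Egr1 gave r = 0.97 and the message-destroying protein Zfp36 gave r = 0.95. Klf10 went the other way, with r = -0.68. Nfkb2 was only weakly related to Fos, with r = 0.31. Of the 19 members, 17 stayed above 0.7 without those 2 lungs. In tumors 10 of 43 other members passed the same r, against 1.51% of genes, and 6 of these stayed above it without the 2 tumors farthest from the median of Fos. The other 4 were Fosl2 (r = 0.62 without those tumors), Junb (0.49), Btg2 (0.65) and Cebpd (0.50).

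The lungs that stood apart could be named. Over all 42 members, replicate 3 of the WT 14-day lungs was the highest of its group in 32, replicate 2 of the WT controls in 29, replicate 1 of the KO 14-day lungs in 27 and replicate 3 of the KO controls in 23. Replicate 1 of the KO controls was the lowest of its group in 22, replicate 2 of the KO 14-day lungs in 21, and replicate 3 of the WT controls and replicate 6 of the WT 14-day lungs in 20 each. Each result below that changed without 1 of these lungs is given with and without it. What set this spread was not tested.

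**Figure D1:**
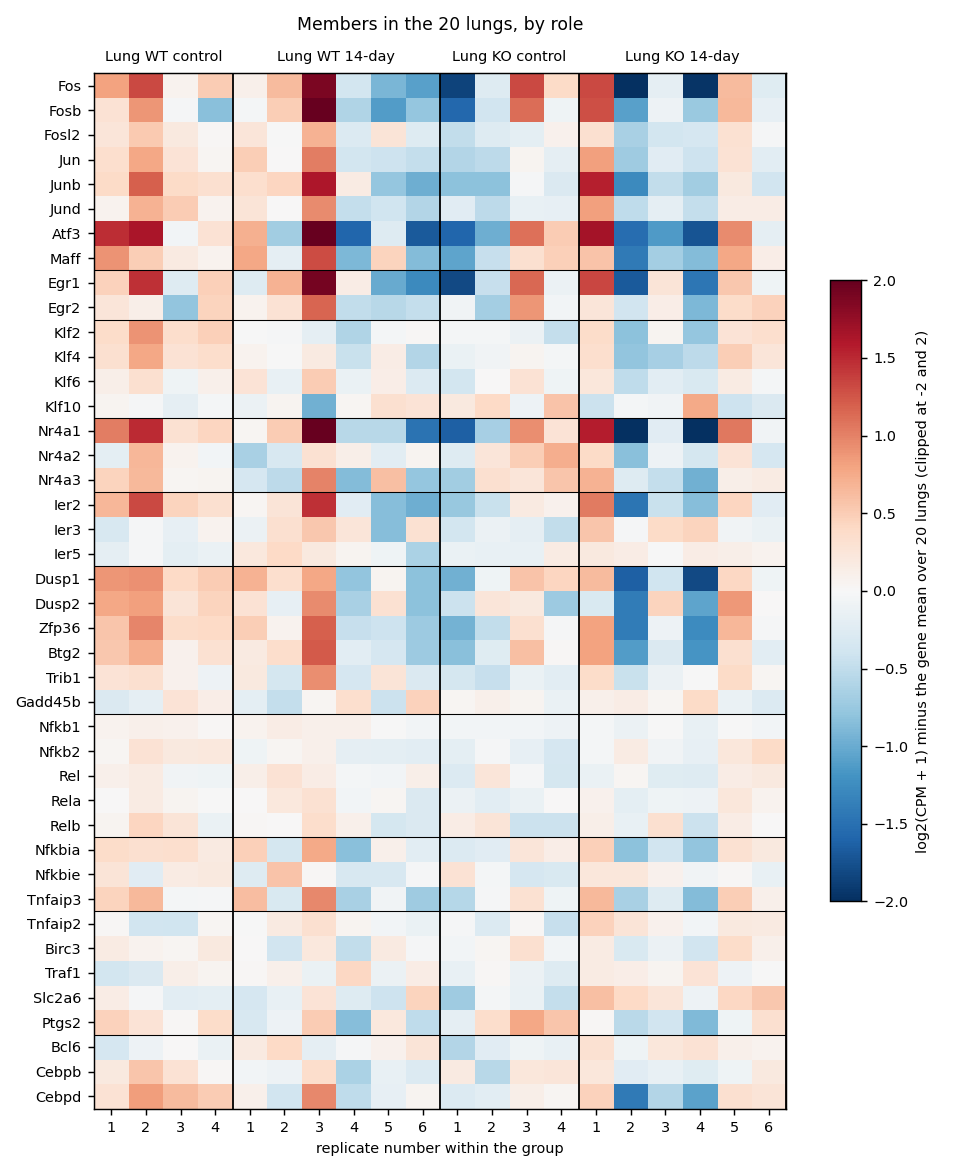
Each row is 1 of the 42 members tested in lungs, ordered by role, and each column is 1 of the 20 lungs, with color giving log2(CPM + 1) minus the mean of that gene over the 20 lungs. Fos, Atf3, Egr1 and Nr4a1 form dark columns shared between genes, such as replicate 3 of the WT 14-day lungs, while Nfkb1 is nearly uniform.

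Clic4 itself followed the labels. It lay between 210 and 287 CPM in KO lungs and between 603 and 882 CPM in WT lungs, and between 244 and 273 CPM in KO-host tumors against 287 to 314 CPM in WT-host tumors. The deletion covers the region of exon 2, whereas counts were taken over the whole gene. The summed CPM of 4 alveolar type 2 markers was 7998 to 11066 in lungs and at most 0.708 in tumors. Library totals ran from 4446323 to 8318711 counts.

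The first comparison asked how WT lungs changed 14 days after tumor cells were placed at a distant site. Among the members 1 gene was called, Klf2, a zinc finger factor known for keeping endothelium and lymphocytes quiescent, and it fell. Calls in lungs used a false discovery rate of 0.25 and a change of at least 1.5-fold, and 0.574% of all genes were called. Klf2 was at 73.4, 106, 72.5 and 79.4 CPM in the 4 WT control lungs and at 36.9 to 57.5 CPM, median 55.6, in the 6 WT 14-day lungs. The groups did not overlap, as was the case for 2 of the 42 members (Klf2 and Klf4) and 2.98% of all genes. The log2 fold change of Klf2 was -0.67 (SE 0.20, edgeR quasi-likelihood test, Benjamini-Hochberg adjusted p = 0.202).

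Klf4, a related factor, was at 80.9, 112, 79.3 and 82.6 CPM in controls and at 42.8 to 73.4 CPM, median 66.5, at 14 days, and did not pass the limit (log2 fold change -0.52, SE 0.21, edgeR adjusted p = 0.34). At an unadjusted p under 0.05 stood 5 members, against 11.8% of all genes, namely Klf2, Klf4, Nfkb2 (-0.28), Cebpb (-0.41) and, in the other direction, Bcl6 (0.28). With GC offsets the estimates of Nfkb2 and Cebpb were -0.14 and -0.15 (edgeR unadjusted p = 0.199 and 0.358). Estimates were below 0 for 30 members and above 0 for 12, with a median log2 fold change of -0.18 against 0.003 over all genes. The median was -0.42 without replicate 3 of the WT 14-day lungs, where 3 members were called lower (Ier2, Klf2 and Cebpd), -0.05 without replicate 2 of the WT controls and -0.09 with offsets for GC content. The share of all genes called was not counted in the fit without replicate 3. Klf2 was not called without any 1 of the 4 WT control lungs or without replicate 4 or 6 of the WT 14-day lungs (adjusted p up to 0.418), nor with GC offsets (-0.48, adjusted p = 0.44). Tissue was sampled in bulk, so fewer cells of a type and less RNA per cell cannot be told apart.

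In KO lungs the same comparison called 1 member, Slc2a6, which rose. All genes were called at 0.262%. Slc2a6 was at 3.54, 6.23, 5.81 and 4.36 CPM in the 4 KO controls and at 5.99 to 10.3 CPM, median 8.88, in the 6 KO 14-day lungs, and the groups overlapped. Its log2 fold change was 0.78 (SE 0.21, edgeR adjusted p = 0.204). No member of the 42 had groups that did not overlap, against 2.18% of all genes.

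Bcl6, a transcriptional repressor of lymphoid and myeloid cells, was at 20.1, 26.1, 29.0 and 27.5 CPM in KO controls and at 28.8 to 38.1 CPM, median 34.6, at 14 days. It passed the false discovery limit but not the fold limit (0.41, SE 0.12, edgeR adjusted p = 0.218). It no longer passed the former in 7 of 10 fits that left out 1 lung, namely any 1 of the 4 KO controls or replicate 1, 3 or 4 of the KO 14-day lungs (adjusted p up to 0.425). At an unadjusted p under 0.05 were 6 members, against 8.64% of all genes: Slc2a6, Bcl6, the cytokine-induced gene Tnfaip2 (0.38), Ier3 (0.51) and Nfkb2 (0.28) with higher estimates, and Ptgs2, the inducible cyclooxygenase, with a lower one (-0.64). Ptgs2 was called without replicate 6 of the KO 14-day lungs, at the edge of the limit (edgeR adjusted p rounding to 0.25). With GC offsets the Nfkb2 estimate was 0.17 (edgeR unadjusted p = 0.148). The median over members was 0.08 against 0.004 over all genes, and it lay between -0.06 and 0.18 when single lungs were left out and was -0.002 with GC offsets, so its direction was not stable. Slc2a6 was not called without any 1 of the 4 KO controls or without replicate 1 or 3 of the KO 14-day lungs (adjusted p up to 0.413), nor with GC offsets (0.68, adjusted p = 0.324). Genes of other lists and markers of several cell types differed at 14 days. In KO lungs 3 of 6 glucocorticoid response genes were lower at an unadjusted p under 0.05 (median -0.41), against 0 in WT lungs (median -0.28). At that limit 2 of 5 T cell markers were higher in KO lungs (median 0.30). Of 27 other NF-kappaB pathway genes, 4 were higher in KO lungs, and 2 were higher and 2 lower in WT lungs, with none called. Of 6 neutrophil markers tested 3 were called higher in WT and 2 in KO lungs. The summed CPM of the 7 markers was 49.5 to 87.6 in WT controls, 91.4 to 334 in WT 14-day lungs, 54.0 to 100.04 in KO controls and 38.2 to 379 in KO 14-day lungs. All 4 platelet markers had an unadjusted p under 0.05 and higher values in KO lungs at 14 days (median log2 fold change 0.79), and Itga2b was called (0.82, SE 0.24, edgeR adjusted p = 0.224). In WT lungs all 4 B cell markers had lower estimates at 14 days (median -0.61), and 1 had an unadjusted p under 0.05. Also in WT lungs, the alveolar macrophage marker Marco (-1.42, SE 0.25, edgeR adjusted p = 0.0935) and the fibroblast collagen Col1a1 (-0.73, SE 0.20, edgeR adjusted p = 0.161) were called lower. Marco alone of 4 alveolar macrophage markers had an unadjusted p under 0.05 there (median -0.11, -1.42 to 0.20). The 4 fibroblast markers had a median of -0.16 (-0.73 to 0.03). The part of these cells and genes in the member values was not tested.

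Whether the tumor response differed between genotypes was tested gene by gene as an interaction. No member was called by edgeR, where 0.0499% of all genes were called, while 3 had an unadjusted p under 0.05 (8.53% of all genes) and DESeq2 called 1. The 3 genes were Nfkb2, Klf2 and Slc2a6, all with a higher response in KO lungs. Nfkb2 encodes p100, the precursor of the alternative NF-kappaB pathway. It was at 28.8, 34.4, 31.9 and 32.6 CPM in WT controls and at 23.9 to 29.8 CPM, median 25.4, in WT 14-day lungs. In KO lungs it was at 24.3, 27.5, 24.7 and 22.0 CPM in controls and at 24.7 to 36.6 CPM, median 29.3, at 14 days. The lower control level in KO lungs and the opposite estimates at 14 days both enter the interaction of 0.56 (SE 0.15, edgeR unadjusted p = 0.000908, adjusted p = 0.3).

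The interaction estimates of Klf2 and Slc2a6 were 0.82 (SE 0.28) and 0.75 (SE 0.29), with edgeR adjusted p = 0.438 and 0.495. With GC offsets they were 0.47 and 0.55 (edgeR unadjusted p = 0.121 and 0.0811). Estimates were above 0 for 34 of 42 members and the median was 0.17 against 0.0007 over all genes. The median was 0.44 without replicate 3 of the WT 14-day lungs, 0.07 without replicate 1 of the KO 14-day lungs, 0.09 without replicate 1 of the KO controls and 0.11 with GC offsets. Nfkb2 was called without replicate 3 of the WT 14-day lungs or replicate 1 of the KO controls (adjusted p = 0.187 and 0.249). With GC offsets its estimate was 0.31 (unadjusted p = 0.058). Estimates in several other lists lay on 1 side of 0 in the interaction as well, with no gene called. All 4 B cell markers (median 0.94, 0.67 to 1.44) and all 5 T cell markers (median 0.54, 0.34 to 0.80) had estimates above 0, as did all markers tested of NK cells (median 0.30), platelets (0.39), erythroid cells (0.56) and alveolar type 1 cells (0.15). All 6 heat shock genes (median -0.77, -1.56 to -0.22) and all 3 adipocyte markers (median -0.95, -0.99 to -0.76) had estimates below 0. An unadjusted p under 0.05 was reached by 1 gene each of the B cell, T cell, NK cell, alveolar type 1 and adipocyte lists. It was reached by 0 platelet, erythroid or heat shock genes. Of 27 other NF-kappaB pathway genes 3 reached it, all higher (median 0.09). The part of these in the member values was not tested. The 42 members had a median GC content of 54.0%, against 48.9% over all genes tested.

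**Figure D2:**
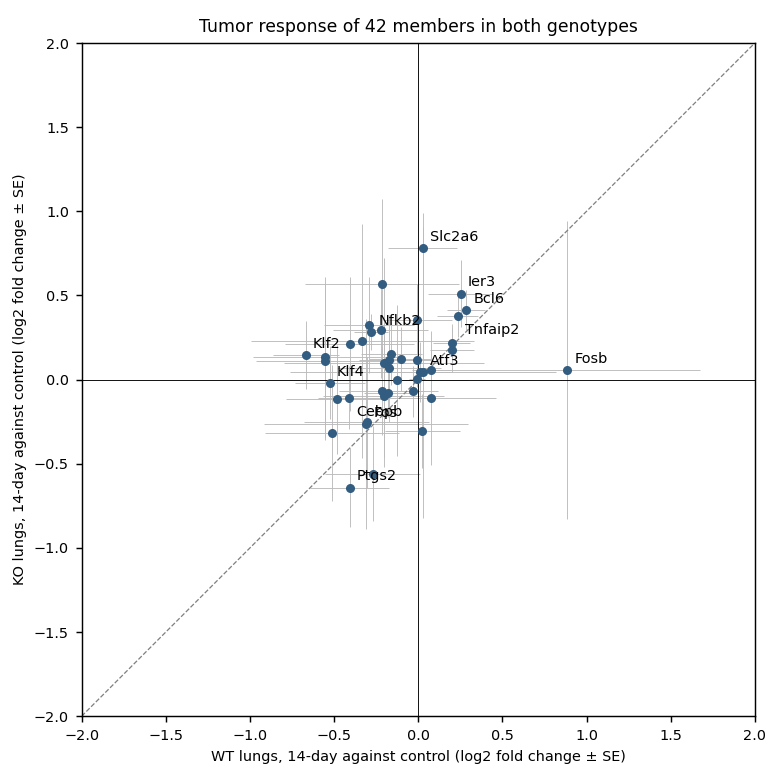
Each point is 1 of 42 members, with the log2 fold change of 14-day against control lungs in WT (x axis) and KO (y axis) and bars of 1 SE; the dashed line marks equal responses. Nfkb2 and Klf2 lie left of 0 and above the line, Slc2a6 lies near 0 in WT and at 0.78 in KO, and Fosb has the widest bars.

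Compared directly at 14 days, KO and WT lungs gave no called member by edgeR or by DESeq2, where edgeR called 0.212% of all genes. Members with an unadjusted p under 0.05 were Nfkb1 (-0.12, SE 0.04) and Slc2a6 (0.45, SE 0.18), against 8.34% of all genes. No member had groups that did not overlap, against 0.549% of all genes. Nfkb1 was at 130 to 149 CPM, median 143, in WT and at 121 to 134 CPM, median 130, in KO lungs. The median over members was -0.11, and it was 0.12 without replicate 3 of the WT 14-day lungs, so its direction rested on that lung. Among the markers, the cardiac gene Myh6 was called lower in KO lungs (-0.66, SE 0.10, edgeR adjusted p = 0.0031), and Col1a1 (0.65, SE 0.18) and Marco (0.86, SE 0.24) were called higher (edgeR adjusted p = 0.205 and 0.234). The 3 cardiac markers had a median of -0.57 (-0.66 to -0.08). The 4 fibroblast markers had 0.12 (-0.09 to 0.65) and the 4 alveolar macrophage markers 0.30 (-0.12 to 0.86). Their part in the member values was not tested.

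KO and WT control lungs were compared as the baseline. No member was called in the fit of all 20 lungs, where 0.231% of genes were called, while 7 members had an unadjusted p under 0.05 (11.6% of all genes) and DESeq2 called 1, Klf2. Estimates were below 0, that is lower in KO, for 36 of 42 members, with a median of -0.31 against -0.004 over all genes, and the median lay between -0.41 and -0.21 when single lungs were left out and was -0.19 with GC offsets. Groups did not overlap for 11 members, all lower in KO, against 7.60% of all genes in either direction. These were Junb, Jund, Ier2, Klf2, Klf4, Dusp2, Zfp36, Nfkb1, Nfkb2, Trib1 and Cebpd.

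Klf2 was at 55.2, 54.9, 52.3 and 40.4 CPM in KO controls, all below the WT controls given above (-0.71, SE 0.22, edgeR adjusted p = 0.267; -0.43, unadjusted p = 0.0691 with GC offsets). Nfkb1 was at 130, 129, 130 and 126 CPM in KO and at 141, 144, 143 and 136 CPM in WT controls, a small and separate shift (-0.13, SE 0.05, adjusted p = 0.335 by edgeR). Zfp36 was at 56.9, 77.9, 137 and 108 CPM in KO and at 163, 217, 142 and 145 CPM in WT controls.

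The count of calls in control lungs differed between the fit of all lungs and a fit of the controls, which also changed the genes kept and the scaling, and the cause was not tested. Members varied less among controls, with a median SD of 0.25 in WT and 0.31 in KO controls, than among 14-day lungs, with 0.51 in both genotypes. Over all genes it was 0.16 in WT and 0.17 in KO controls and 0.20 in both 14-day groups. For Fos the SD was 0.53 in WT and 1.36 in KO controls, and 1.12 in WT and 1.41 in KO 14-day lungs. Control groups held 4 lungs and 14-day groups 6. Fitted on the 8 control lungs alone, edgeR called 8 members lower (Dusp2, Zfp36, Jun, Junb, Ier2, Klf2, Jund and Cebpd), where 1.62% of 15202 genes were called. The largest of these was Junb (-1.09, SE 0.22, edgeR adjusted p = 0.112). With GC offsets in that fit, only Cebpd, a C/EBP factor, was called (-0.63, SE 0.13, edgeR adjusted p = 0.189), and 0.105% of genes were called. Replicate 1 of the KO controls had 16.6 CPM of Fos, the others 52.4, 158 and 82.5 CPM. Markers of several cell types differed in the same comparison. All 4 NK cell markers had lower estimates in KO controls and Prf1 was called (-1.01, SE 0.28, edgeR adjusted p = 0.233). All 4 alveolar type 1 markers were lower at an unadjusted p under 0.05 (median -0.24), as were 2 of 5 T cell markers (median -0.51) and 1 of 4 B cell markers (median -0.69). Chil3, an alveolar macrophage marker, was called higher (0.89, SE 0.20, edgeR adjusted p = 0.168). It alone of the 4 alveolar macrophage markers had an unadjusted p under 0.05 (median 0.17, -0.15 to 0.89). The part of these cells in the member values was not tested.

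KO-host and WT-host tumors were compared at 14 days. Of the 44 members, 1 was called. Slc2a6 rose past both limits used for tumors, a false discovery rate of 0.05 and a 2-fold change, and 1.06% of all genes were called. It was at 12.9 to 27.6 CPM, median 17.8, in WT-host tumors and at 34.8 to 40.8 CPM, median 36.2, in KO-host tumors, without overlap (log2 fold change 1.02, SE 0.13, edgeR adjusted p = 0.000497). The call stood at the edge of the fold limit. It was lost without replicate 6 of the KO-host tumors or replicate 2 or 3 of the WT-host tumors (estimates down to 0.94) and with GC offsets (0.96, adjusted p = 0.00101).

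At a false discovery rate of 0.05 with no fold limit, 4 members were higher and none lower, against 2.51% of all genes. These were Slc2a6, Nfkb2, Birc3 and Nfkbie, and the same 4 had groups that did not overlap, against 1.95% of all genes. Nfkb2 was at 45.9 to 51.4 CPM, median 48.3, in WT-host and at 62.5 to 69.4 CPM, median 64.9, in KO-host tumors (0.43, SE 0.06, edgeR adjusted p = 0.000496). It was among the least variable genes within tumor groups, with an SD of 0.060. Birc3, an inhibitor of cell death, was at 26.6 to 34.6 CPM and at 37.6 to 47.5 CPM (0.44, SE 0.08, edgeR adjusted p = 0.00844). Nfkbie, which encodes an inhibitor that holds NF-kappaB in the cytoplasm, was at 19.1 to 25.5 CPM and at 26.4 to 34.5 CPM (0.48, SE 0.10, edgeR adjusted p = 0.0156). Nfkbie did not pass 0.05 without replicate 5 of the WT-host tumors (adjusted p = 0.0534). Nfkb2 and Birc3 passed it without any 1 tumor (adjusted p up to 0.00203 and 0.0325).

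**Figure D3:**
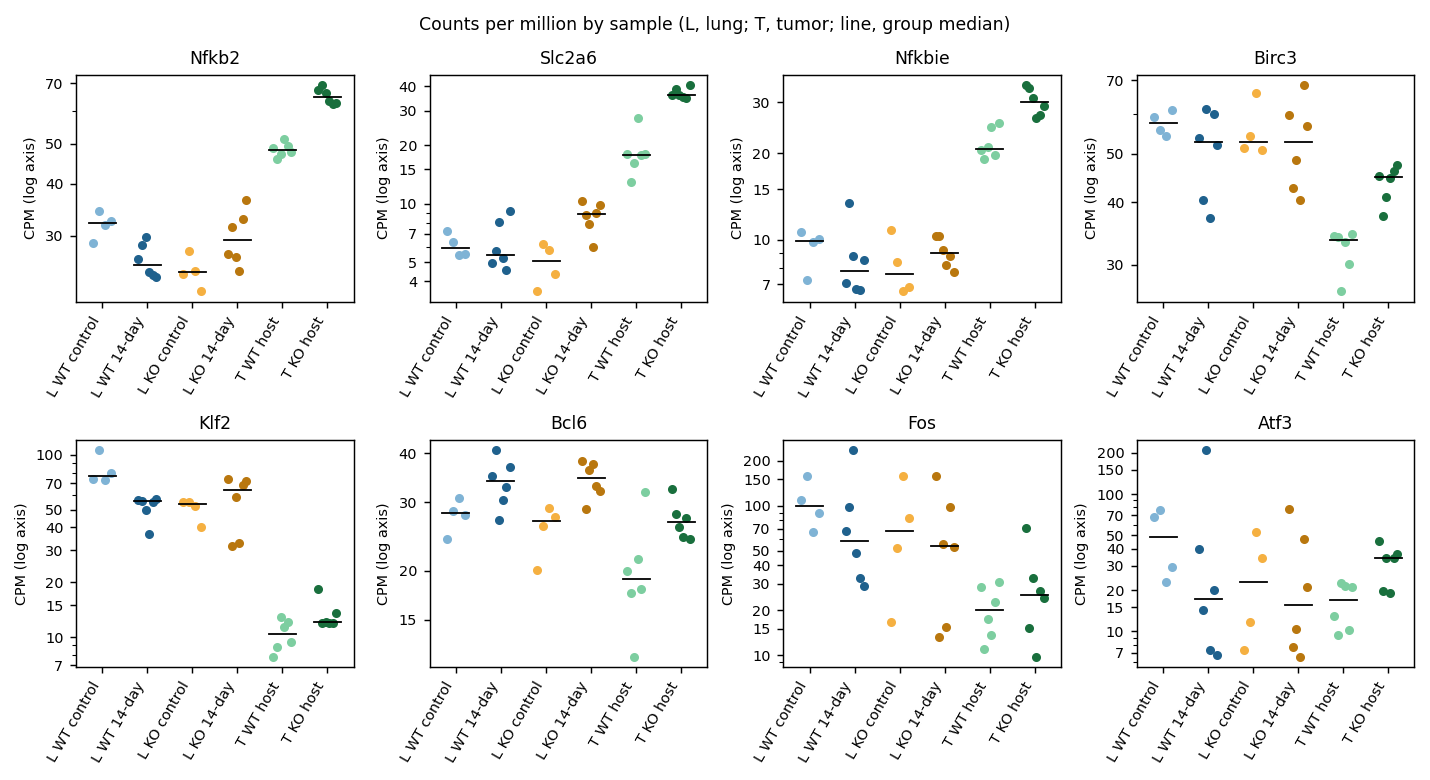
CPM on a log axis is shown for 8 members in each sample of the 6 groups, with a line at the group median. Nfkb2, Slc2a6, Nfkbie and Birc3 separate the tumor groups, Klf2 separates WT controls from WT 14-day lungs and from KO controls, and Fos and Atf3 spread widely within each lung group.

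By role, an unadjusted p under 0.05 with a higher estimate in KO-host tumors was found for 4 of 5 NF-kappaB subunits. It was found for 2 of 3 genes that restrain NF-kappaB (Nfkbia, Nfkbie and Tnfaip3) and 5 of 6 other NF-kappaB targets. It was found for 3 of 9 AP-1 and related genes, 1 of 2 Egr genes, 2 of 4 Klf genes, 1 of 3 Nr4a genes, 0 of 3 Ier genes, 1 of 6 genes that act as brakes and 2 of 3 of Bcl6 and the C/EBP genes. In all this was 21 higher and 0 lower of 44 members, against 15.5% of all genes in either direction. Such counts depend on the spread within groups (SD 0.79 for Fos and 0.060 for Nfkb2) as well as on size. The median log2 fold change was 0.37 for subunits, 0.48 for restraining genes and 0.51 for other NF-kappaB targets. It was 0.47 for AP-1 and related genes, 0.41 for Egr, 0.26 for Klf, 0.31 for Nr4a and 0.08 for Ier genes. For brakes it was 0.21, and 0.62 for Bcl6 and the C/EBP genes. Estimates were higher for 42 members, the exceptions being Fosb and Nr4a2, with a median of 0.34 against -0.01 over all genes (0.24 to 0.40 without single tumors, 0.28 with GC offsets). Among all genes called in tumors, 139 were higher and 7 lower.

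Rela, the subunit that carries most of the canonical activity, differed least among the subunits (0.04, unadjusted p over 0.05). Tnf, a cytokine that is both inducer and target, had few reads, with 4 to 25 counts per tumor, and an estimate of 1.03 (SE 0.33, edgeR adjusted p = 0.129). Atf3 was at 9.45 to 22.5 CPM in WT-host and at 19.0 to 45.7 CPM in KO-host tumors (0.97, SE 0.26, edgeR adjusted p = 0.0613). Atf3 passed both limits without replicate 2 or 4 of the KO-host tumors or replicate 6 of the WT-host tumors, and Tnf without replicate 1 of the KO-host tumors.

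Of 28 other NF-kappaB pathway genes tested in tumors 1 was called, the adhesion molecule Icam1 (1.13, SE 0.17, edgeR adjusted p = 0.00118), and 10 had an unadjusted p under 0.05, all higher. Of 23 genes of the MAP kinase and serum response pathway none was called, with 1 higher and 3 lower at an unadjusted p under 0.05. Markers of several cell types differed between the tumors as well. The summed CPM of 5 T cell markers was 5.63 to 25.3 in WT-host and 19.8 to 35.2 in KO-host tumors, and Cd3d (1.46) and Cd3g (1.31) were called (edgeR adjusted p = 0.0391 and 0.0389). Of 5 macrophage and monocyte markers 3 were higher at an unadjusted p under 0.05 (median 0.49), with a summed CPM of 198 to 426 in WT-host and 350 to 503 in KO-host tumors. All 3 adipocyte markers were higher at an unadjusted p under 0.05 (median 0.89), with a summed CPM of 66.6 to 175 and 79.8 to 408. Of 4 epithelial tumor markers 2 were lower at that limit (median 0.24, -0.24 to 0.68). Their summed CPM was 493 to 651 in WT-host and 444 to 522 in KO-host tumors. The part of these cells in the member values was not tested.

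**Figure D4:**
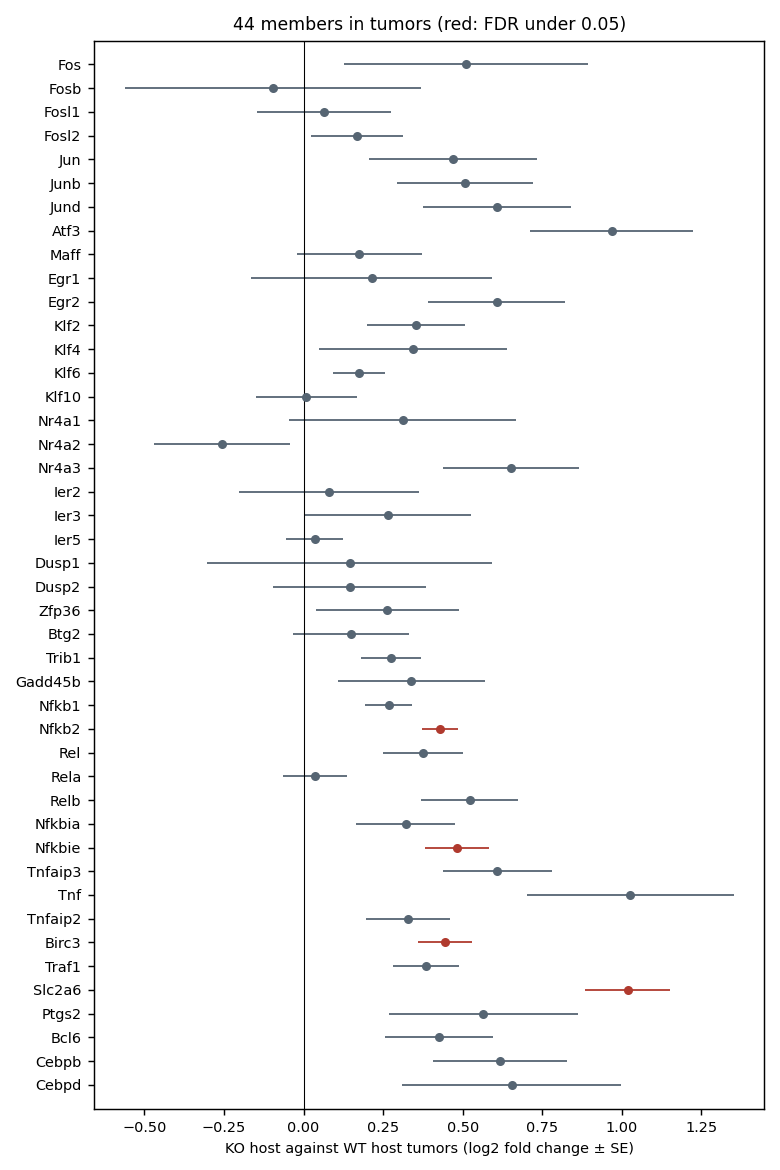
The log2 fold change of KO-host against WT-host tumors is shown for 44 members in order of role, with bars of 1 SE. Slc2a6, Nfkb2, Birc3 and Nfkbie, in red, have an adjusted p under 0.05, and 42 of the 44 points lie right of 0.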

How the data were processed

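Lungs and primary tumors of Clic4 WT and KO mice were profiled by stranded, paired-end mRNA sequencing. Per the study's methods and processing notes, the authors aligned reads to mm10 with STAR and estimated gene counts with RSEM. They deposited a table of expected counts, given as whole numbers, and a table of FPKM values. From the expected counts deposited by the authors, CPM and tests were computed here with edgeR 4.0.16 in R 4.3.3 (TMM scaling, filterByExpr, quasi-likelihood test, Benjamini-Hochberg adjustment over all genes tested), in 1 fit of the 20 lungs and 1 fit of the 12 tumors. The FPKM values deposited by the authors served to compare genes and, in an alternative with limma, to compare samples. Limits were a false discovery rate of 0.25 with 1.5-fold in lungs (no fold limit for the interaction), and 0.05 with 2-fold in tumors. Totals of 4446323 to 8318711 counts limit what can be shown for genes with few reads.

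Genes were named when past the limits, at an unadjusted p under 0.05, or among the 5 members with the smallest p in either direction. The members and lists were chosen with earlier results of these data known, and some may be genes the study singled out on these samples, so their direction is not independent evidence. Alternatives were DESeq2 1.42.0, other scaling and filters, GC offsets (loess, span 0.5, from GENCODE M21 transcripts), a replicate block, leaving out each sample, and limma 3.58.1 on log2(FPKM + 1) and log2(FPKM + 0.1). The fit of control lungs alone with GC offsets was chosen after seeing the data. The scripts were tested on simulated data.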

Additional observations from a re-analysis of the deposited data

Results flagged for a closer look

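In 30 of 256 groups of member values, 1 sample lay far from the others by Dixon's test at the 95% level. Of these samples 26 were the highest and 4 the lowest of their group. For independent, normally distributed values chance gives about 1 in 20. The test was run on CPM without logs and many members moved together, so that rate does not apply here.

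Replicate 3 of the WT 14-day lungs accounted for 10, with 235 CPM of Fos (others 28.9 to 97.7), 28.1 CPM of Fosb, 94.4 CPM of Junb, 156 CPM of Egr1, 14.5 CPM of Egr2, 40.6 CPM of Ier2, 209 CPM of Atf3 (others 6.75 to 39.8), 260.1 CPM of Nr4a1, 64.1 CPM of Trib1 and 38.0 CPM of Cebpd. Replicate 1 of the KO-host tumors accounted for 6, with 70.9 CPM of Fos, 14.0 CPM of Fosb, 73.9 CPM of Jun, 18.4 CPM of Ier2, 18.4 CPM of Klf2 and 14.0 CPM of Dusp2.

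In control lungs, replicate 2 of the WT group had 70.4 CPM of Junb and 112 CPM of Klf4, replicate 4 of the KO group had 28.6 CPM of Ier5 and a low 126 CPM of Nfkb1, and replicate 2 of the KO group had a low 6.82 CPM of Cebpb. At 14 days, replicate 1 of the KO lungs had 89.8 CPM of Junb, replicate 4 of the KO lungs 61.4 CPM of Klf10, replicate 2 of the WT lungs 13.4 CPM of Nfkbie and replicate 4 of the WT lungs a low 36.9 CPM of Klf2. In tumors, replicate 6 of the WT hosts had 97.3 CPM of Fosl2 and 179 CPM of Nfkb1, replicate 1 of the WT hosts 9.68 CPM of Nr4a1, replicate 4 of the WT hosts 27.6 CPM of Slc2a6 and replicate 2 of the KO hosts a low 7.33 CPM of Fosl1.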

How the results depend on the processing

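Of 100 alternative values of the counts and medians, 14 moved, all of them counts of calls that changed by over 1.5 times. Medians were judged against 1 SD between samples (0.17 to 0.38), which is wide beside their own size. With GC offsets the median went from -0.18 to -0.09 in the WT response and from 0.08 to -0.002 in the KO response. The number of members called moved as follows, and the cause was not tested. In this section the share of all genes called was counted only for the fits of control lungs and for tumors without a fold limit. With DESeq2, 1 was called in the interaction (Nfkb2) and 1 in control lungs (Klf2), and requiring 10 counts in every sample also gave 1 in control lungs. GC offsets gave 0 in the WT response, 0 in the KO response and 0 in tumors. With the replicate block added they gave 1 in the WT response (Klf2, -0.69, edgeR adjusted p = 0.132), 1 in the KO response and 0 in tumors. Without a fold limit, 2 were called in the KO response and 4 in tumors. Fitting only the control lungs gave 8, and 1 with GC offsets. Leaving out single samples gave 0 to 3 in the WT response, 0 to 2 in the KO response, 0 to 1 in the interaction and 0 to 2 in tumors.

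Within a tissue, same-numbered samples of the groups compared did not deviate together (correlations -0.28 to 0.23), and the numbers were not taken to pair them. Lungs were not compared with same-numbered tumors, which may come from the same mice. With the replicate block 2 were called in the WT response, 2 in the KO response and 1 in control lungs, and Nfkbie in tumors did not pass a false discovery rate of 0.05 (adjusted p = 0.0715, and 0.0607 with GC offsets added).

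Signs of variable members reversed in few settings. For Egr2 in control lungs the value was -0.059 with the replicate block and -0.018 with GC offsets and the block, and it lay between -0.39 and 0.29 when single samples were left out. For Egr2 in the interaction it was 0.12 and 0.17 with limma on FPKM with a pseudocount of 1 and 0.1, and -0.40 to 0.28 without single samples. For Fosb in the interaction it was 0.29 with limma and a pseudocount of 0.1, and -1.26 to 0.75 without single samples. Without single samples Fosb lay between -1.37 and 0.63 for KO against WT at 14 days and between -0.70 and 0.15 in tumors, and in control lungs Ptgs2 lay between -0.030 and 0.28 and Ier5 between -0.0032 and 0.12.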
